A study of Mus musculus with 16 samples.

Results

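Small leucine-rich proteoglycans are secreted matrix proteins whose core is built from leucine-rich repeats and which, in most members, carries chondroitin, dermatan or keratan sulfate chains. They coat collagen fibrils, set how fibrils grow and fuse, and hold growth factors of the TGF-beta family in the matrix. In bone they are made by osteoblasts and their precursors, and several of them bind mineral or the cells that deposit it. The 8 genes described here are all those of the deposited count table with the symbols *Dcn* (decorin), *Bgn* (biglycan), *Aspn* (asporin), *Lum* (lumican), *Fmod* (fibromodulin), *Prelp* (prolargin), *Omd* (osteomodulin, also called osteoadherin) and *Ogn* (osteoglycin, also called mimecan), 8 of 25054 genes. They were chosen by name, and all 8 passed the filter on low counts.

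RNA was measured in 16 mouse osteosarcomas. All mice were OsxCreERT2+/-;p53fl/fl;Rb1fl/fl, so that a Cre recombinase made in Osterix-expressing cells, which are of the osteoblast lineage, removed *Trp53* and *Rb1* once tamoxifen was given (400 ug/g at 1 month of age). The 8 tumors called KO came from mice that also carried Arid1afl/fl, and the 8 tumors called WT from mice without it. The mice were male and female and over 6 months old. The KO tumors came from 8 mice, named here as in the labels (Massa, Medusa, Montana, Ohio, Prince, Grilka, Zelda and Oregon), with no body site given. By their animal codes the WT tumors came from 4 mice: 4 tumors of N42 (right pelvis, right femur, left limb and left shoulder), 2 of N43 (spine and pelvis), 1 of N215 (right hind limb) and 1 of N25, whose site is given as lung. Tumors of 1 mouse share their genotype, age and treatment, so p-values over the 16 tumors take the WT tumors as more independent than they are.

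Between 1109487 and 15059640 counts lay on genes in the KO libraries and between 7806160 and 16962329 in the WT libraries. CPM here are counts scaled to a common library size after TMM normalization, and 3 counts correspond to 6.69 CPM in Massa, 4.03 CPM in Grilka and at most 0.839 CPM in the other libraries (counting error only). The TMM factors of Massa (0.409) and Grilka (0.414) were the lowest, against 0.626 to 1.504 in the other libraries. The floxed gene itself did not separate the groups: *Arid1a* lay between 107 and 270 CPM in KO and between 125 and 236 CPM in WT (log2 fold change 0.16 ± 0.22 SE, edgeR adjusted p = 0.715), and counts over a whole gene cannot show the loss of floxed exons. Several tumors carried RNA of other tissues. The 7 skeletal muscle markers summed to 143550 CPM in Oregon and 95821 CPM in Montana, against at most 216 CPM in the other KO tumors. In WT this sum ran from 8.20 CPM (N25) to 8051 CPM (pelvis of N43). The 5 lung markers summed to 26009 CPM in N25 and 10885 CPM in Massa, against at most 17.3 CPM elsewhere. The 6 epithelial markers summed to 1386 CPM in Prince, 696 CPM in N25 and 386 CPM in Massa, against at most 25.6 CPM elsewhere.

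Most members sit beside another member in the mouse genome (GENCODE vM21, GRCm38, all protein-coding). *Aspn* (ENSMUSG00000021388, chr13:49544443-49567565), *Omd* (ENSMUSG00000048368, chr13:49582462-49592822) and *Ogn* (ENSMUSG00000021390, chr13:49608046-49624501) follow each other on the plus strand of chromosome 13 with gaps of 14896 and 15223 bp. *Dcn* (ENSMUSG00000019929, chr10:97479609-97518143) and *Lum* (ENSMUSG00000036446, chr10:97565128-97572703) are 46984 bp apart on the plus strand of chromosome 10. *Prelp* (ENSMUSG00000041577, chr1:133910304-133921414, minus strand) and *Fmod* (ENSMUSG00000041559, chr1:134037254-134048277, plus strand) are 115839 bp apart, and *Bgn* (ENSMUSG00000031375, chrX:73483602-73495933, plus strand) stands alone on the X chromosome. The chromosome 13 trio lies inside *Cenpp*, a centromere protein gene on the opposite strand, which shares 7 exon bases with *Aspn* and 0 with *Omd* and *Ogn*. *Cenpp* was low, with a median of 5.43 CPM in KO and 1.90 CPM in WT (log2 fold change 0.96 ± 0.65 SE, edgeR adjusted p = 0.397). An antisense gene, *Gm15851*, covers 9.68% of the exon bases of *Prelp*, and without a stated strand setting reads of that stretch cannot be told apart.

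The 250 bases before the annotated start, from RefSeq (GRCm38.p6), are shown for the 3 neighbours on chromosome 13, whose levels went separate ways in several tumors, and for *Bgn*, the most abundant member per length in most tumors. Promoters were found for 6 of the 8 members. Capitals mark matches on either strand to TATAAA, the letters of a TATA box, to GGGCGG, those of a GC box, and to TGTGGT, the core of a RUNX site, Runx2 being the osteoblast factor of that family.
Aspn, chr13:49544193-49544442, plus strand: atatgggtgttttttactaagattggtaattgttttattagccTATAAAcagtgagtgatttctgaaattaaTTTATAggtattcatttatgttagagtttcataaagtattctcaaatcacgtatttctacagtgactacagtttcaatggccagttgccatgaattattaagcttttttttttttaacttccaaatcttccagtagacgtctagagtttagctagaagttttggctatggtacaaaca
Omd, chr13:49582212-49582461, plus strand: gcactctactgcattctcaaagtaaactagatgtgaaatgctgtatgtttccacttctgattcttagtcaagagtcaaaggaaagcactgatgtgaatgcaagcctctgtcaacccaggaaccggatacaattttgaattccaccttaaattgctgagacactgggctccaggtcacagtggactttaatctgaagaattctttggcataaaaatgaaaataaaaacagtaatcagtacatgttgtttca
Ogn, chr13:49607765-49608014, plus strand: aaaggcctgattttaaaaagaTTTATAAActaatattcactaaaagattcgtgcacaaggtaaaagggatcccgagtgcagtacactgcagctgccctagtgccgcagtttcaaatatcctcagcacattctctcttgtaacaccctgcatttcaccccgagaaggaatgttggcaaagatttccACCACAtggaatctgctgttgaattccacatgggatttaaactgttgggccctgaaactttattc
Bgn, chrX:73483351-73483600, plus strand: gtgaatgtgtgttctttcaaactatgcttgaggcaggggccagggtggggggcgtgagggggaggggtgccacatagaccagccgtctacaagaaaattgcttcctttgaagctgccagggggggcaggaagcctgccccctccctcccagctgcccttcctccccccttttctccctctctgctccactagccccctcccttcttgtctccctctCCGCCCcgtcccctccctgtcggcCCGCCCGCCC
The stretch before *Aspn* held 2 matches to the TATA box, whose first bases lie 207 and 178 bases before the start, and its GC content was 30%. *Ogn* held 2 overlapping TATA matches, which are the same letters read on both strands and begin 229 and 227 bases before the start, and 1 RUNX match 65 bases before it. *Bgn* held 3 GC box matches in its last 34 bases, the last 2 of them overlapping, at a GC content of 64.4%. *Omd* held none of these 3 motifs, nor did *Fmod* and *Prelp*. Of 32851 mouse promoters of the same length 12.4% hold the TATA letters, 32.7% the GC box and 14.05% the RUNX core, and their median GC content is 52.4%. These matches are descriptions of the letters only.

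The comparison of KO with WT tumors asks how the transcriptome of these osteosarcomas differs when *Arid1a* is floxed as well. The fitted value of all 8 proteoglycan genes was lower in KO, and 2 of them, *Aspn* (6.22-fold) and *Lum* (8.57-fold), passed the test (edgeR quasi-likelihood test, two-sided, Benjamini-Hochberg adjusted p under 0.05). Across all 15413 genes tested, 2.15% were called lower. *Omd*, *Fmod* and *Bgn* had an unadjusted p under 0.05, which makes 5 members lower at that level against 9.75% of all genes, and *Dcn*, *Ogn* and *Prelp* did not reach it. The median log2 fold change of the 8 was -2.13, beside 0.10 for all genes tested, of which 44.1% had a negative value. No member had every KO tumor below every WT tumor, a separation that 0.208% of all genes showed. Without the 4 tumors of N42, with counts summed per mouse, or with the mouse as a random effect in limma-voom, 0 members passed (3, 3 and 4 at an unadjusted p under 0.05), and all 8 values were negative. In these 3 settings the log2 fold change of *Aspn* was -2.16, -2.36 and -2.83, and that of *Lum* was -3.06, -2.64 and -1.59 ± 1.58 (SE). Over all genes the calls fell from 618 to 8, 10 and 17. In bulk tumors, fewer cells that make a proteoglycan and less of its mRNA per cell cannot be told apart.

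**Figure D1:**
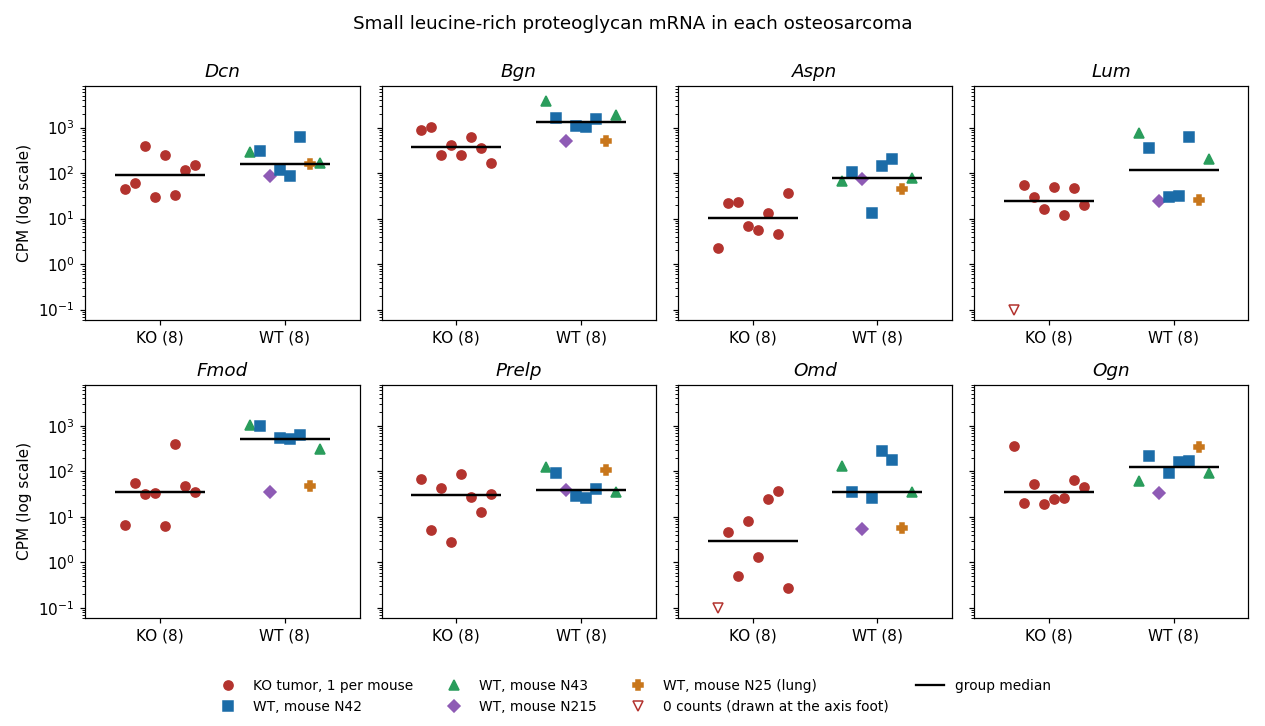
Level of each gene in each tumor, in CPM on a log axis, with the 8 KO tumors in red on the left and the 8 WT tumors on the right with a symbol for each mouse. Black lines are group medians, and open triangles stand for the 0 counts of *Lum* and *Omd* in Massa. The groups overlap in every panel, and the WT tumors of N215 (purple) and N25 (orange) lie among the KO tumors for *Bgn*, *Lum*, *Fmod* and *Omd*.

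Among the decorin-like members, *Aspn* was lower in KO, *Bgn* had a negative value that missed the threshold, and *Dcn* was not separable. *Dcn*, whose product binds collagen fibrils and TGF-beta, ranged from 29.8 CPM (Ohio) over a median of 88.6 to 384 CPM (Montana) in KO, and from 87.5 (left limb of N42) over 161 to 614 CPM (left shoulder of N42) in WT. The 3 highest KO values, in Montana, Prince (244 CPM) and Oregon (154 CPM), lay within the WT range, and the difference of -0.77 ± 0.56 (SE) on the log2 scale did not pass (edgeR adjusted p = 0.430). These 3 tumors are those with the most muscle or epithelial RNA. The log2 fold change of *Dcn* was -0.37 without the 4 tumors of N42, -0.38 without the left shoulder tumor of N42 alone and -0.43 with counts summed per mouse. It was -1.23 without Montana, the highest KO tumor. Without Montana, Prince and Oregon, the 3 highest KO tumors, it was -2.01 ± 0.55 (SE, edgeR adjusted p = 0.0618).

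*Bgn*, the matrix proteoglycan that promotes bone formation and, once soluble, binds Toll-like receptors, ranged from 167 CPM (Oregon) over 383 to 1001 CPM (Medusa) in KO and from 501 (N25) over 1300 to 3915 CPM (spine of N43) in WT. Every KO tumor was below the WT median, 5 of 8 were below the lowest WT tumor, and apart from N25 and N215 (513 CPM) no WT tumor was below 1006 CPM. Its log2 fold change was -1.62 ± 0.49 (SE), a 3.08-fold lower level, with an edgeR adjusted p of 0.0654 (0.0458 without Massa, 0.0453 without N215, 0.0439 without N25 and up to 0.143 without another single tumor). *Aspn*, which binds collagen and calcium through its acidic end and is close to *Dcn* and *Bgn* in sequence but lacks their chains, ranged from 2.23 CPM (Massa, 1 count) over 10.2 to 36.1 CPM (Oregon) in KO. In WT it ranged from 13.1 CPM (right femur of N42) over 76.5 to 199 CPM (left shoulder of N42). The femur tumor was the lowest by far among WT, and 4 of 8 KO tumors were below it. The log2 fold change of *Aspn* was -2.64 ± 0.56 (SE, edgeR adjusted p = 0.0159), the smallest p of the group, and it passed whichever single tumor was left out.

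Of the lumican-like members, which mostly carry keratan sulfate, *Lum* was lower in KO and *Fmod* and *Omd* showed differences of like size that did not pass. *Lum*, a regulator of fibril spacing, had 0 counts in Massa, a median of 24.8 CPM and at most 53.9 CPM (Medusa) in KO. In WT its values fell into a low and a high set, with 24.8 CPM in N215, 25.8 in N25, 29.5 in the femur and 31.3 in the left limb tumor of N42, and then 198 and 755 CPM in the pelvis and spine of N43 and 349 and 612 CPM in the pelvis and shoulder of N42. The 4 low WT tumors therefore lay inside the KO range and the 4 high ones above all KO tumors. The log2 fold change of *Lum* was -3.10 ± 0.84 (SE, edgeR adjusted p = 0.0460), and its call held in 4 of the 16 omissions of a single tumor, those of Massa, Zelda, N215 and N25 (adjusted p from 0.0288 to 0.102 over the 16).

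*Fmod*, which binds the same collagen sites as lumican and guides crosslinking by lysyl oxidase, ranged from 6.31 CPM (Prince) over 34.6 to 397 CPM (Grilka) in KO and from 35.2 (N215) over 519 to 1065 CPM (spine of N43) in WT. Apart from Grilka no KO tumor exceeded 56.4 CPM, and apart from N215 and N25 (47.4 CPM) no WT tumor was below 316 CPM. Its log2 fold change of -2.76 ± 0.85 (SE) had an edgeR adjusted p of 0.0710, and ran from -2.53 to -4.04 with 1 tumor left out. The value of -4.04 (edgeR adjusted p = 0.0147) is that without Grilka, the highest KO tumor, and the adjusted p was 0.0480 without N215, 0.0467 without N25 and up to 0.134 in the other omissions. *Omd*, the keratan sulfate proteoglycan of mineralized matrix that binds hydroxyapatite and osteoblast integrins, ranged from 0 counts (Massa) over 2.99 to 37.2 CPM (Zelda) in KO and from 5.44 (N215) over 34.8 to 276 CPM (left limb of N42) in WT. In 5 of 8 KO tumors it was below the lowest WT tumor, although the 0 counts of Massa allow up to 6.69 CPM. Its log2 fold change was -3.16 ± 1.02 (SE, edgeR adjusted p = 0.0794), and it ran from -2.62 (adjusted p = 0.159) to -4.12 without Zelda, the highest KO tumor (adjusted p = 0.0290), with 1 tumor left out.

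*Prelp*, which links basement membranes to collagen and binds heparan sulfate through a basic end, ranged from 2.77 CPM (Ohio) over 29.6 to 85.9 CPM (Prince) in KO and from 26.1 (left limb of N42) over 39.4 to 127 CPM (spine of N43) in WT. Medusa (5.28 CPM), Ohio and Zelda (12.8 CPM) were below all WT tumors and the other 5 were among them. The difference of -0.85 ± 0.59 (SE) on the log2 scale had an edgeR adjusted p of 0.403. *Ogn*, from the third branch of the family and first described as a bone-associated factor, ranged from 19.1 CPM (Ohio) over 35.5 to 368 CPM (Massa) in KO and from 32.7 (N215) over 126 to 334 CPM (N25) in WT. The highest tumor of either group was thus the 1 with the most lung marker RNA, and the next KO tumor after Massa was Zelda (64.5 CPM). The log2 fold change of *Ogn* was -0.94 ± 0.63 (SE, edgeR adjusted p = 0.392), and with 1 tumor left out it ran from -0.64 without N25 (adjusted p = 0.562) to -2.01 without Massa (adjusted p = 0.0210), which are the highest tumors of WT and KO. The share of the lung RNA in these levels was not tested.

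**Figure D2:**
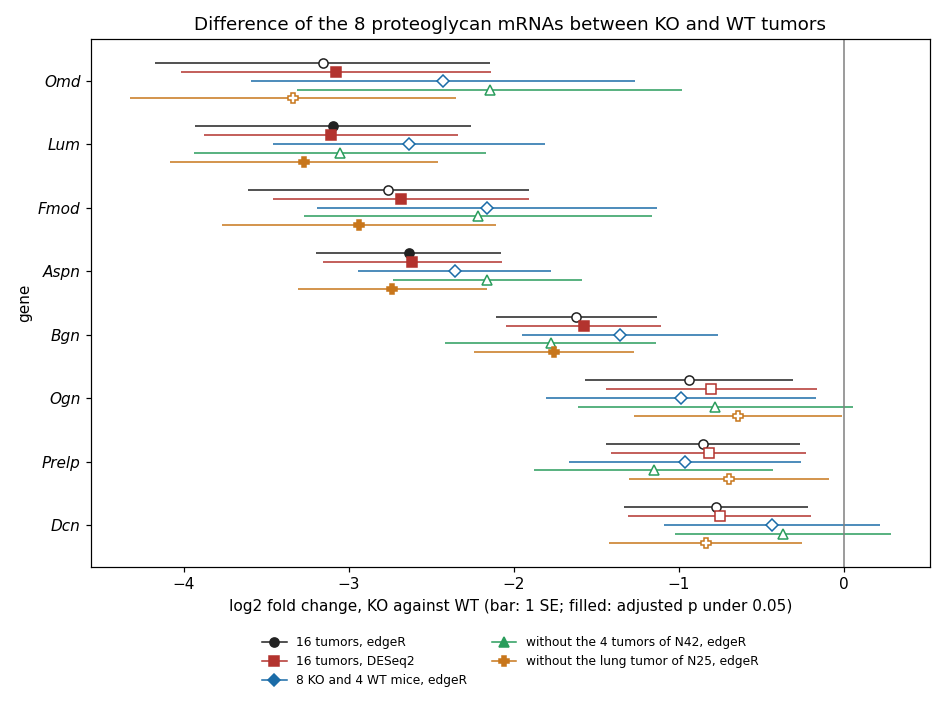
Log2 fold change of each gene, KO against WT, with bars of 1 SE, under 5 settings. Filled symbols have an adjusted p under 0.05. All values are negative, DESeq2 filled 5 of 8 (*Aspn*, *Lum*, *Fmod*, *Bgn* and *Omd*), and no symbol is filled when counts are summed per mouse or the tumors of N42 are left out.

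The number of members past the threshold depended on the test and on the tumors. DESeq2 with default settings called 5 members lower (adjusted p of 0.000131 for *Aspn*, 0.00208 for *Lum*, 0.00987 for *Fmod*, 0.0130 for *Bgn* and 0.0154 for *Omd*), where 4.77% of all genes with an adjusted p were called lower. With counts summed per mouse the log2 fold changes ran from -0.43 for *Dcn* to -2.64 for *Lum*, and 0.025% of all genes were called lower. Without the lung tumor of N25, 4 members passed (*Aspn*, *Lum*, *Fmod* and *Bgn*). The calls over all genes rose as well, with 453 of 15457 called lower, against 331 of 15413 with all tumors.

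The make-up of the group also varied between tumors. Per length of exon sequence, in CPM per kb, the WT medians ran from *Bgn* (213) and *Fmod* (157) over *Ogn* (48.9), *Lum* (46.9), *Aspn* (32.5), *Dcn* (27.5) and *Omd* (15.5) to *Prelp* (10.9). In KO the order was *Bgn* (62.7), *Dcn* (15.2), *Ogn* (13.9), *Fmod* (10.5), *Lum* (10.2), *Prelp* (8.20), *Aspn* (4.33) and *Omd* (1.33). The ranges of neighbours in either order overlapped. *Bgn* was the leading member in 5 KO and 6 WT tumors. *Dcn* led in Montana (38.5% of the summed CPM per kb of the 8) and Prince (29.5%), *Fmod* in Grilka (45.5%) and in the right pelvis tumor of N42 (32.2%), and *Ogn* in N25 (41.3%), while in Massa *Ogn* (45.2%) and *Bgn* (45.5%) were level. The 8 genes together took between 0.0306% (Oregon) and 0.119% (Medusa) of all counts in KO, with a median of 0.0597%, and between 0.0916% (N215) and 0.742% (spine of N43) in WT, with a median of 0.322%. Only Medusa and Zelda (0.1001%) among KO exceeded the lowest WT tumor in this share, which is not scaled by TMM. The overlap depends on that choice. In summed CPM, Massa (1372), Medusa (1224), Grilka (1140) and Montana (813) exceeded N215 (811), again the lowest WT tumor, while Zelda (681) did not.

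**Figure D3:**
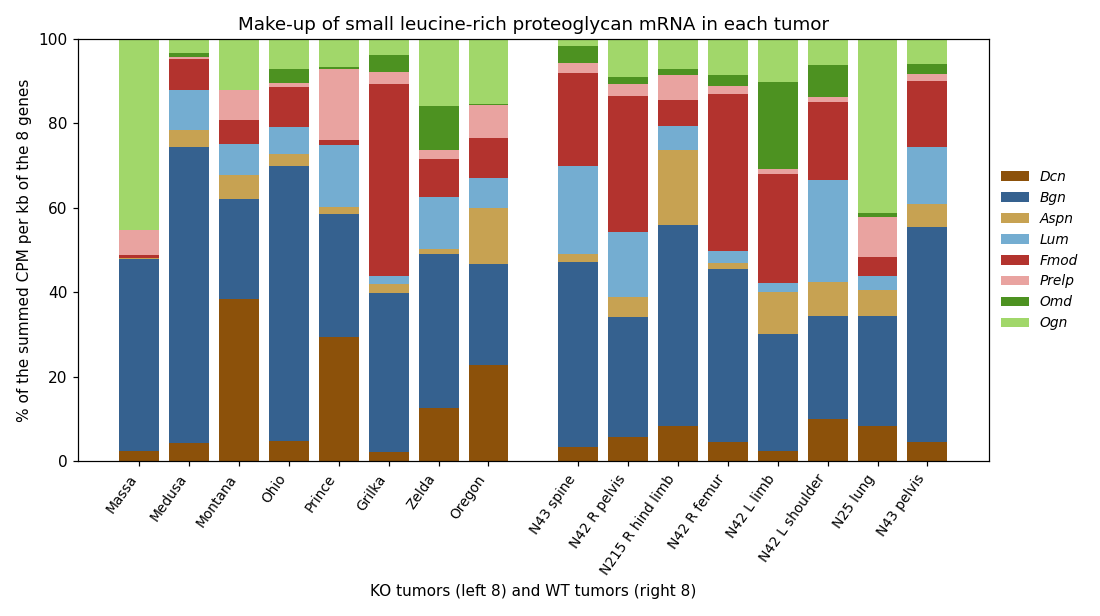
Share of each gene in the summed CPM per kb of the 8 genes, in %, 1 bar per tumor, KO on the left and WT on the right. Dark blue (*Bgn*) is the main part of most bars. *Dcn* (brown) is wide in Montana, Prince and Oregon, *Fmod* (red) in Grilka and in the tumors of N42 and N43, and *Ogn* (light green) in Massa and N25.

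Ratios of a pair of members within a tumor need no scaling between libraries. On the log2 scale of counts, *Dcn*/*Bgn* had a median of -2.69 in KO (from -4.27 to 0.64) and -2.88 in WT (from -3.74 to -1.31). *Fmod*/*Lum* had a median of 0.48 in KO (from -2.996 to 4.96) and 0.77 in WT (from 0.05 to 4.16). *Ogn*/*Omd*, of a pair of neighbours on chromosome 13, had a median of 3.12 in KO (from 0.08 to 8.37) and 1.64 in WT (from -1.09 to 5.84). *Bgn* over *Col1a1*, the main collagen chain of bone, had a median of -3.64 in KO and -3.75 in WT. None of the 4 ratios passed the test between the groups (two-sided exact permutation tests over all arrangements of the 16 tumors into groups of 8). The largest difference was that of *Ogn*/*Omd*, 2.19 higher in KO (exact permutation p = 0.131, 0.524 after adjustment over the 4), and the others had p from 0.491 to 0.672. The highest KO values of *Ogn*/*Omd*, in Massa, Oregon and Montana, rest on 0, 1 and 2 counts of *Omd*, so they depend on the pseudocount of 0.5. The difference was 1.72 with a pseudocount of 2 and 1.36 as a mean per mouse. With 1 tumor left out it ran from 1.53 (without Massa) to 2.80 (without N25). The KO tumors spread wider than the WT tumors in all 4, with SDs of 2.05 to 3.14 against 0.91 to 2.27. These SDs do not measure the same spread, because the 8 KO tumors came from 8 mice and the 8 WT tumors from 4. The low *Omd* counts named above, and 0 counts of *Lum* in Massa, also enter the KO values. The 3 highest values of *Dcn*/*Bgn* were those of Montana, Prince and Oregon.

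The WT tumors carry site labels, which allows trunk tumors (spine and pelvis of N43, right pelvis of N42) to be set against limb tumors (hind limb of N215, femur, limb and shoulder of N42). No gene of 17131 tested passed in this small comparison (edgeR, 0% called, 641 genes at an unadjusted p under 0.05), and DESeq2 called 31 genes, none of them a member. *Bgn* had 1621, 1893 and 3915 CPM in the trunk tumors and 513, 1006, 1074 and 1527 CPM in the limb tumors. It was the member in which every trunk tumor exceeded every limb tumor, as did 2.74% of all genes, with a log2 difference of 1.28 ± 0.50 (SE, edgeR adjusted p = 0.974). *Prelp* had 35.9, 92.8 and 127 CPM in the trunk and 26.1, 29.1, 38.2 and 40.5 CPM in the limb. Its log2 difference was 1.37 ± 0.40 (SE, edgeR adjusted p = 0.974), and *Bgn* and *Prelp* were the members with an unadjusted p under 0.05, 2 of 8 beside 2.86% of all genes called higher in trunk at that level. With the mouse as a block the difference of *Bgn* was 0.44 and that of *Prelp* 1.55. *Lum* (1.32 ± 1.21), *Fmod* (0.90 ± 0.83), *Dcn* (0.19 ± 0.75), *Ogn* (0.14 ± 0.61), *Aspn* (-0.36 ± 0.73) and *Omd* (-0.83 ± 1.15) had log2 differences of about their SE or less. *Lum* rested on 1 tumor: without the left shoulder of N42, its highest limb tumor, the difference was 3.94 ± 0.56 (SE, edgeR adjusted p = 0.899), and over the 7 omissions of a tumor it ran from 0.66 to 3.94. With the mouse as a block *Omd* differed by -2.18 ± 1.42 (SE, edgeR adjusted p = 1) and *Lum* by 0.65 ± 1.73.

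Within a single mouse the members varied to different degrees. Among the 4 tumors of N42 *Bgn* spanned 1.61-fold, *Fmod* 1.94-fold, *Ogn* 2.30-fold and *Prelp* 3.55-fold. *Dcn* spanned 7.02-fold, *Omd* 10.8-fold, *Aspn* 15.3-fold and *Lum* 20.7-fold. The femur tumor had the lowest *Lum* (29.5 CPM), *Aspn* (13.1 CPM) and *Omd* (25.6 CPM) of the 4 beside 529 CPM of *Fmod*, and the shoulder tumor had the highest *Lum* (612 CPM), *Aspn* (199 CPM) and *Dcn* (614 CPM). The left limb tumor combined low *Lum* (31.3 CPM) and *Dcn* (87.5 CPM) with the highest *Omd* of the series (276 CPM) and 143 CPM of *Aspn*. Each site of N42 is 1 tumor, so the error of these spans is not known. In N43 the spine tumor exceeded the pelvis tumor in *Bgn*, *Lum*, *Fmod*, *Omd*, *Dcn* and *Prelp* and was below it in *Ogn* (62.8 against 91.6 CPM) and *Aspn* (66.9 against 78.4 CPM).

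Over the 16 tumors 26 of the 28 pairs of members had a positive correlation of log2 CPM (median Pearson r 0.41), which includes the difference between the groups. *Fmod* and *Omd* were the closest pair (r = 0.84, Spearman rho = 0.78), and r was 0.82 without the 2 tumors farthest from the median of *Omd*. Within the KO tumors 13 of 28 pairs were positive (median r -0.10) and within the WT tumors 26 were (median r 0.41), where tumors of 1 mouse count as separate points. *Fmod* and *Omd* kept a positive r within KO (0.68) and within WT (0.81). *Dcn* and *Lum*, neighbours on chromosome 10, had r = 0.43 within KO and 0.88 within WT, while *Dcn* and *Bgn* had -0.72 within KO and 0.58 within WT. The lowest value, -0.82 for *Lum* and *Ogn* within KO, rests on Massa and was 0.16 over the other 7. The neighbours on chromosome 13 had r of 0.58 for *Aspn* and *Omd*, 0.26 for *Aspn* and *Ogn* and 0.13 for *Omd* and *Ogn* over the 16 tumors.

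**Figure D4:**
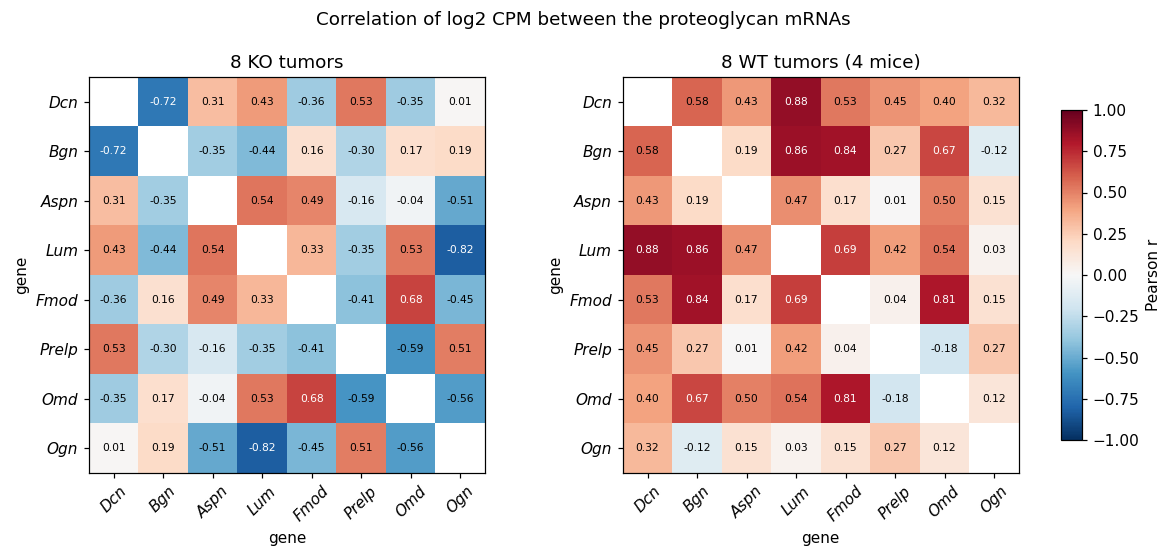
Pearson correlation of log2 CPM for each pair of the 8 genes, within the 8 KO tumors (left) and within the 8 WT tumors of 4 mice (right), from -1 (blue) to 1 (red). The right panel is red for 26 of 28 pairs and the left for 13 of 28, with *Dcn* and *Bgn* at -0.72 on the left and 0.58 on the right.

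The genes whose log2 CPM ran closest to each member over the 16 tumors, among all genes tested, are given as a description. For *Fmod* they were *S100a4* (r = 0.95), *Prrx1* (0.94), a transcription factor of limb and skeletal mesenchyme, and *Ccn2* (0.92), connective tissue growth factor. For *Bgn* they were *Sash1* (0.92), *Lhfp* (0.92) and *Col6a1* (0.92), a chain of collagen VI, to which biglycan binds. For *Aspn* they were *Tnfaip6* (0.90), *C1qtnf3* (0.86) and *Pappa2* (0.85), and for *Lum* *Abat* (0.91), *Glt8d2* (0.89) and *Smoc2* (0.89). For *Ogn* they were *Lyz2* (0.95), the lysozyme of macrophages and alveolar cells, *Sod3* (0.91) and *Plscr1* (0.89). For *Omd* they were *Nanos1* (0.95), *Cd300lb* (0.93) and 5430421F17Rik (0.93), for *Dcn* *Mrgprf*, *Zyg11b* and *Ctsd* (0.82, 0.82 and 0.81), and for *Prelp* *Tmcc3* and *Il34* (0.85 and 0.84). *Dcn* and *Prelp* had the loosest companions.

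In each list of genes that work with these proteoglycans a minority passed the test. Across all 15413 genes tested, 2.15% were called lower and 44.1% had a negative value. The 10 calls in these lists take each tumor as a separate sample. With counts summed per mouse, with the mouse as a random effect or without the tumors of N42, settings added after the values were seen, 0 of the 10 passed (9, 7 and 9 at an unadjusted p under 0.05), and all 10 values were negative, with edgeR or limma adjusted p from 0.212 to 0.726. Of 11 collagen genes whose products the members bind, all 11 were lower in KO in fitted value (median log2 fold change -1.27), but only *Col3a1* passed (-3.51 ± 0.78 SE, edgeR adjusted p = 0.0203). *Col1a1* ranged from 214 to 36201 CPM in KO and from 1561 to 47558 CPM in WT. Of 5 lysyl oxidases, which crosslink collagen, *Loxl1* (-1.63) and *Loxl2* (-2.85) were called lower, and the median of the 5 was -2.31. Of 8 proteases that process or cleave members, all 8 had negative values (median -1.12) and *Mmp2* passed (-2.60, from 17.8 to 163 CPM in KO and from 73.3 to 1356 CPM in WT).

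Of 25 enzymes tested that build or sulfate the sugar chains, 17 were lower in fitted value (median -0.46) and 3 passed. These were *Dse* (-1.21) and *Dsel* (-1.38), the epimerases that turn chondroitin into dermatan sulfate, and *Chst12* (-1.62), a 4-sulfotransferase. Of 11 growth factors and receptors that bind members, 9 were lower (median -1.02) and 3 passed, *Lrp1* (-2.01), which takes up decorin, and *Tlr2* (-2.18) and *Tlr4* (-1.52), the receptors of soluble biglycan. The other leucine-rich repeat genes of the family were low: *Tsku*, *Ecm2* and *Podn* had medians between 5.73 and 25.1 CPM, 3 of 6 tested were lower, and 0 passed in edgeR (0 at an unadjusted p under 0.05) or DESeq2.

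Of the marker lists of other cells only that of macrophages held calls in edgeR, and the lists differed in direction. All 7 muscle markers were higher in KO in fitted value (median log2 fold change 3.29), with the high KO levels in Oregon and Montana. Their summed level had a median of 122 CPM in KO and 1641 CPM in WT. With the mouse as a random effect in limma-voom all 7 values were negative, among them *Myh4* (-3.64), *Ckm* (-3.45) and *Atp2a1* (-2.19). The medians of the epithelial (1.35) and adipocyte (1.94) markers tested were also positive. All 4 macrophage markers were called lower in KO, beside 2.15% of all genes tested. Among the 4 were *Mrc1* (-2.33), *Csf1r* (-2.03) and *Cd68* (-2.11). The summed level of the 4 was 98.1 to 299 CPM in KO against 190 to 1134 CPM in WT. With counts summed per mouse, with the mouse as a random effect or without the tumors of N42, 0 of the 4 macrophage markers passed. At an unadjusted p under 0.05 there were 4, 3 and 4, with log2 fold changes from -1.35 to -1.90 and edgeR or limma adjusted p from 0.243 to 0.610. Of the 9 osteoblast and osteocyte markers 7 were lower (median -0.84) and 0 passed in edgeR, with 4 at an unadjusted p under 0.05 and 4 called lower by DESeq2. Their sum ran from 53.3 CPM (Montana) to 6190 CPM (Grilka) in KO and from 285 CPM (N25) to 7250 CPM in WT, with N215 (420 CPM) next to N25, and *Sp7*, the gene of Osterix, ran from 0 counts to 228 CPM in KO and from 5.49 to 147 CPM in WT. The 8 fibroblast and tendon markers, 4 of them lower, summed to 173 to 440 CPM in KO and 435 to 1426 CPM in WT. Of 7 cartilage markers tested 4 were lower, with sums of 9.69 to 751 CPM in KO and 28.6 to 538 CPM in WT. Fibroblast, cartilage, muscle, epithelial, erythroid, lung and adipocyte markers had 0 calls in edgeR (3 genes, of the fibroblast and cartilage lists, at an unadjusted p under 0.05), while DESeq2 called 5 epithelial markers higher and at most 2 genes of any other of these lists. The part of these cells in the levels of the proteoglycans was not tested. Grilka, the KO tumor with the most *Fmod*, was also the KO tumor with the highest sums of bound collagens (64896 CPM), osteoblast markers and cartilage markers.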

How the data were processed

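Total RNA of 16 tumors was depleted of ribosomal RNA (RiboZero), made into TruSeq libraries and sequenced in 50-cycle single reads. The authors aligned the reads with Novoalign 2.08.01 to mm10 with Ensembl splice junctions, allowing several alignments per read, counted them per gene with USeq and deposited these raw counts, with no normalization. The strand setting is not given in the sources used here.

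Counts of all genes were fitted in edgeR 4.0.16 (R 4.3.3) with TMM factors, filterByExpr (minimum count 10, minimum total 15), glmQLFit and glmQLFTest, two-sided, with Benjamini-Hochberg adjustment over all genes tested and a threshold of 0.05. The SE of a log2 fold change is its size divided by the square root of the F statistic. Log2 CPM used a prior count of 2. Trunk and limb WT tumors were compared in the same way, without the lung tumor. The 4 log2 ratios of counts (pseudocount 0.5) were compared by exact permutation. DESeq2 1.42.0, limma 3.58.1 (voom, mouse as a random effect), counts summed per mouse, RLE factors, no filter and the omission of tumors were alternatives. On simulated data of the same depths, edgeR found 94 of 100 genes changed by 2 on the log2 scale between KO and WT and called 5 unchanged genes, over 17301 genes, and 48 of 100 between trunk and limb. The simulated tumors were independent, with a biological coefficient of variation of 0.5. In the data it was 70.4% for KO against WT and 51.0% for trunk against limb, and tumors of N42 and of N43 share a mouse. These rates may therefore not hold for the data.

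The 8 members and all gene lists were chosen with earlier results of these data known. Named genes are the members, the 3 most abundant genes of each list at most, the called genes of lists that are not cell markers, the 3 genes most correlated with each member, and the floxed genes. *Cenpp*, *Gm15851* and *Sp7* were added after the values were seen. A gene that this rule covers is not reported here. Exon lengths and positions are from GENCODE vM21 and promoters from RefSeq (GRCm38.p6). Replicates are tumors, and the labels name neither a batch nor a date.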

Additional observations from a re-analysis of the deposited data

Results flagged for a closer look

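In 32 sets of values (the 8 genes in KO, WT and limb WT tumors and the 4 ratios in KO and WT), 5 held a tumor that stood far from the others, by Dixon's test at the 95% level, where chance marks about 1 in 20. In KO these were *Lum* in Massa, at -2.56 log2 CPM (0 counts) with the next tumor at 3.62, and *Ogn* in Massa, at 8.52 with the next at 6.01. In the limb WT tumors they were the left shoulder tumor of N42 with *Dcn* at 9.26 (next 6.86) and *Lum* at 9.26 (next 4.97) log2 CPM, and the hind limb tumor of N215 with *Fmod* at 5.14 (next 8.99). Massa is the shallowest library, and 3 counts there stand for 6.69 CPM, so the gap of its *Lum* value to the others is uncertain. Its *Ogn* value rests on 165 counts and is not at that limit. In Massa the 5 lung markers summed to 10885 CPM. The cause of these values was not tested.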

How the results depend on the processing

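All 8 members had a negative log2 fold change, KO against WT, under all 25 alternatives, but the count past the threshold moved from 2 of 8 to 0 with counts summed per mouse, with the mouse as a random effect or without the 4 tumors of N42, to 1 with no filter on low counts or without Prince, Oregon and Montana, to 4 without the lung tumor of N25 and to 5 in DESeq2. With 1 tumor left out at a time it lay between 1 and 4. In these omissions the genes called lower ran from 150 of 15535 (without the left shoulder of N42) to 698 of 15829 (without Zelda). RLE factors left the count of members at 2 (293 of 15413 genes called lower). The omission of Massa and Grilka made it 3 (399 of 16610). *Aspn* passed under 22 of 25 alternatives, *Lum* under 7, *Fmod* under 6, *Bgn* under 5, *Omd* and *Ogn* under 2 each, and *Dcn* and *Prelp* under 0. The omission of N25 stands among the 25 as 2 identical entries, so the passes of *Aspn*, *Lum*, *Fmod* and *Bgn* in it count 2 times. Across all genes the calls in either direction numbered 618, 2517 in DESeq2, 10 per mouse, 17 in limma-voom, 8 without N42, 890 without Massa and Grilka, 903 without N25 and 439 without Prince, Oregon and Montana. Those called lower numbered 331 of 15413, 958 of 20078 in DESeq2, 4 of 16007 per mouse and 10 of 15413 in limma-voom. They were 3 of 16050 without N42, 453 of 15457 without N25, 340 of 25054 with no filter and 210 of 16616 without Prince, Oregon and Montana. The 10 calls in lists of partner genes and the 4 of macrophage markers fell to 0 per mouse, in limma-voom and without N42, alternatives chosen after seeing the data. In the comparison of trunk with limb no member passed under any of 11 alternatives, and with 1 tumor left out the log2 difference ran from -0.079 to 1.42 for *Dcn* (-0.04 and -0.06 in other omissions), from -1.79 to 0.012 for *Omd*, from -0.54 to 0.46 for *Ogn* (-0.17 without N215) and from -0.74 to 0.13 for *Aspn*, so that these signs depend on single tumors. That of *Lum* ran from 0.66 to 3.94. The difference of log2 *Bgn*/*Col1a1* turned from 0.37 to -0.25 as a mean per mouse and to -0.49 without N42, and ran from -0.13 to 0.74 with 1 tumor left out, and that of *Fmod*/*Lum* turned from -0.69 to 0.21 without N42. No ratio passed under any alternative. No paired analysis was possible because KO and WT share no mice and the labels give no replicate numbers. The fit per mouse holds the same mice, with the 4 WT mice as 4 samples in place of 8 tumors. The fit without N42 lacks that mouse, and the cause of the changes between settings was not tested. At the depth of Massa and Grilka, values under about 6.69 and 4.03 CPM could not be told from 0.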
